A study of Mus musculus with 39 samples.

Results

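Small RNA of the heart was compared between male FVB/NJ mice of 8 weeks and male FVB/NJ mice of 6 weeks, taking the libraries whose labels give male sex and these ages, 4 of 8 weeks and 12 of 6 weeks, 16 of the 39 libraries of the series. FVB/NJ is an inbred laboratory strain, and the labels give no transgene, deletion or treatment for either age. RNA came from the frozen apex of the ventricles by the labels' protocol, although the tissue label reads whole heart, and libraries were made with a ligation kit for short RNA. Nothing in the labels ties each library to its own animal; p-values therefore speak only of variation among these libraries, which may be technical.

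A microRNA (miRNA) is a strand of about 22 bases cut from a hairpin precursor. It guides the Argonaute protein to messenger RNAs that pair with its seed, bases 2 to 8, and lowers their translation or stability, so miRNAs that share a seed share most of their possible targets. In the mouse heart the weeks after birth bring the end of the slow myosin programme, growth of the muscle cells and build-up of the collagen matrix, and each of these has miRNAs tied to it.

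The mature sequences of the miRNAs on which the comparison turns are given 5′ to 3′ from RefSeq (GRCm38.p6), grouped by seed, with the seed in capitals. They show which relatives can and cannot be told apart by the bases outside the seed.
miR-208b-3p: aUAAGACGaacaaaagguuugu
miR-208a-3p: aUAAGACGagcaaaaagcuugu
miR-29a-3p: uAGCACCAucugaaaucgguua
miR-29b-3p: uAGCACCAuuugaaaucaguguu
miR-29c-3p: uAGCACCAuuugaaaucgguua
miR-301a-3p: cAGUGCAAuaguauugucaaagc
miR-130a-3p: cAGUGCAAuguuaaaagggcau
miR-148a-3p: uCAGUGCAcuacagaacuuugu
miR-148b-3p: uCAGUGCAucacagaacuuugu
miR-30e-5p: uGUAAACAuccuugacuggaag
miR-30a-5p: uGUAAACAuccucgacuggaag
let-7c-5p: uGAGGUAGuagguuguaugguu
let-7d-5p: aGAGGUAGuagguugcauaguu
miR-542-3p: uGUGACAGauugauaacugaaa
miR-139-5p: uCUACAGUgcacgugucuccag
miR-199a-5p: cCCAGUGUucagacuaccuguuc
miR-33-5p: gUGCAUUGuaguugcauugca
Counted from 1 at the 5′ end, miR-208b-3p and miR-208a-3p differ by A10G, G16A and U18C, with the base of miR-208b-3p first. miR-29a-3p and miR-29c-3p differ by C10U alone, and miR-30e-5p and miR-30a-5p by U13C alone.

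Total counts were 4922437 to 10382875 per library at 8 weeks and 4146777 to 14563754 at 6 weeks. Levels are counts relative to library size (CPM), scaled by TMM, a factor that corrects for a few dominant miRNAs. Several mature sequences are encoded at more than 1 locus, and the files divide their counts among the loci, so values are for the sum over identical sequences unless a locus is named. The share given to each locus separated the libraries into 5 sets: replicate 1 of 8 weeks (set 1), replicates 2 to 4 of 8 weeks (set 2), and, at 6 weeks, replicates 1 to 5 (set 3), replicates 6, 7, 11 and 12 (set 4) and replicates 8 to 10 (set 5). No set held both ages. Age and whatever separates the sets therefore cannot be told apart. In 2 libraries of 6 weeks, replicates 2 and 6, miR-143-3p alone took 43.6% and 43.0% of counts, against 8.92% to 12.3% in the other 10 and 8.63% to 9.33% at 8 weeks.

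Of 310 mature sequences tested, 29 differed between 8 and 6 weeks at an edgeR adjusted p under 0.05 (9.35%), 16 higher at 8 weeks (5.16%) and 13 lower (4.19%); 74 had an unadjusted p under 0.05. Over all 310 the difference lay above 0 in 135 (43.5%) and below 0 in 175 (56.5%). In 10 of the 29 all libraries of 8 weeks lay on 1 side of the whole 6-week range in TMM-scaled CPM. That is what no overlap means here, and it held for 11 of all 310 (3.55%). In 6 of the 310, of which miR-33-5p and miR-301b-3p were called, no library of 8 weeks reached the 5 CPM of the filter, so they were tested only because of their 6-week level, and their tests and lack of overlap support nothing. Against each 6-week set taken alone, 3 of the 29 were called every time: miR-208b-3p, miR-542-3p and miR-5099-3p. let-7c-5p, miR-139-5p, miR-29a-3p and miR-29c-3p were 4 of the 5 that lay above it (1.61% of 310). miR-148a-3p, miR-208b-3p, miR-301a-3p, miR-301b-3p, miR-33-5p and miR-542-3p were the 6 that lay below it (1.94% of 310). Without replicate 1 of 8 weeks the count was 62 (23 higher, 39 lower), and 27 of the 29 were among them. The libraries of 8 weeks are then all of set 2. A call gained only without replicate 1 is therefore a description of set 2 and not a test of age. With the library set as a random block the count was 0 by limma, where 24 had an unadjusted p under 0.05 and the lowest adjusted p was 0.232. Scaled by library totals it was 8 (4 higher, 4 lower), all among the 29. The 4 higher were miR-199a-5p, miR-29a-3p, miR-378c-5p and miR-5099-3p. The 4 lower were miR-208b-3p, miR-301b-3p, miR-33-5p and miR-542-3p. The other calls described below therefore depended on TMM.

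**Figure D1:**
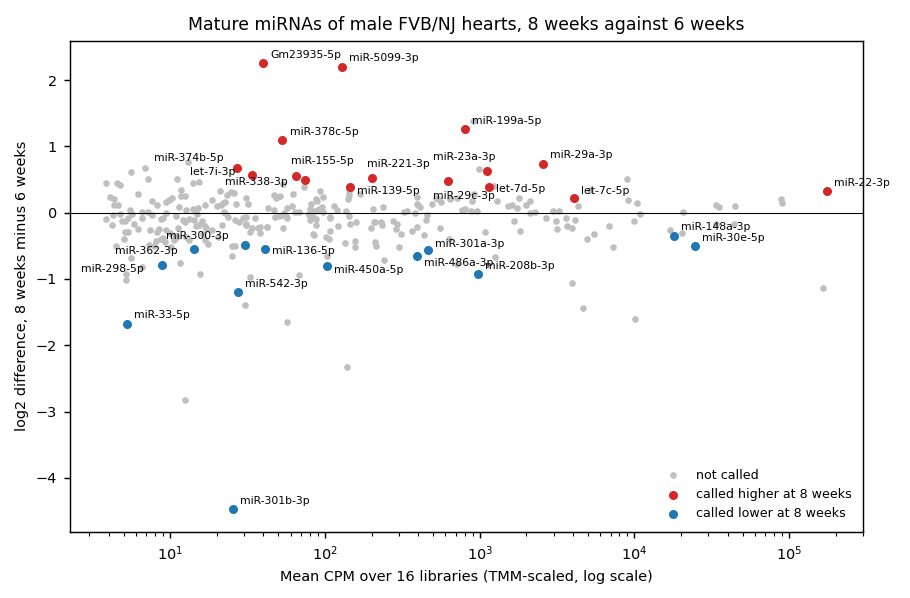
Each point is 1 mature miRNA, with its mean CPM over the 16 libraries on a log axis and its log2 difference, 8 weeks minus 6 weeks, on the other; red points were called higher at 8 weeks, blue points lower, grey points not called. The 29 called miRNAs are named, and most lie within 1 log2 unit of 0, with miR-301b-3p at -4.47.

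Among heart muscle miRNAs, miR-208b-3p fell at 8 weeks. It (chr14:54975710-54975731, minus strand) lies in an intron of Myh7, the slow myosin heavy chain that the mouse ventricle loses after birth. It had 657, 515, 618 and 517 CPM in the 4 libraries of 8 weeks, against 801 to 1569 CPM (median 1060) in the 12 libraries of 6 weeks. All 4 libraries of 8 weeks lay below all 12 of 6 weeks. The difference was -0.93 ± 0.17 (log2, 8 weeks minus 6 weeks ± SE; edgeR adjusted p = 0.00253). Against the 6-week libraries of set 3, set 4 and set 5 alone it was -0.95, -0.60 and -1.27, and each comparison was called. It remained called whichever library was left out (-0.998 to -0.872).

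The 2 other myosin genes with miRNAs in their introns did not give the same result. miR-208a-3p (chr14:54949072-54949093), from an intron of Myh6, the fast myosin that replaces Myh7, had 792, 927, 967 and 991 CPM at 8 weeks, against 840 to 1474 CPM (median 1127) at 6 weeks. The groups overlapped, and the difference of -0.30 ± 0.12 did not pass the test (adjusted p = 0.144, edgeR). miR-499-5p, from Myh7b, had 1421 to 1806 CPM at 8 weeks and 1235 to 1756 CPM at 6 weeks, a difference of 0.10 ± 0.10 (adjusted p = 0.546, edgeR). Of the 5 tested sequences of these 3 genes 1 fell, none rose, and 4 differences lay below 0, where 4.19% of all 310 fell, 5.16% rose and 56.5% lay below 0. The minor arm miR-499-3p had 31.7, 11.7, 12.7 and 14.3 CPM at 8 weeks, against 22.3 to 37.3 CPM at 6 weeks, with replicate 1 inside the 6-week range and the other 3 below it (-0.65 ± 0.22, adjusted p = 0.0759, edgeR). Without replicate 1 miR-499-3p was called lower (-1.11).

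Of the miR-29 family, which represses collagens and other matrix genes, 2 of 3 members with the seed AGCACCA rose and the other was not called, where 5.16% of all 310 rose. miR-29a-3p (chr6:31062673-31062694, minus strand) had 3565, 4780, 3063 and 3207 CPM at 8 weeks, against 1481 to 2619 CPM (median 2346) at 6 weeks. Every library of 8 weeks lay above every library of 6 weeks, replicate 2 of 8 weeks farthest. The difference was 0.74 ± 0.15 (edgeR adjusted p = 0.00657), 0.64, 0.59 and 1.16 against sets 3, 4 and 5 (not called against set 4), and it stayed called whichever library was left out (0.58 to 0.81). miR-29c-3p (chr1:195037600-195037621, plus strand) had 815, 915, 708 and 711 CPM at 8 weeks, against 380 to 684 CPM (median 597) at 6 weeks, again without overlap (0.47 ± 0.13, adjusted p = 0.0323, edgeR). Against sets 3, 4 and 5 alone the difference of miR-29c-3p was 0.35, 0.39 and 0.84, and it was called against set 5 alone. Its call ended without replicate 2, 3 or 4 of 8 weeks or replicate 9 of 6 weeks (0.39 to 0.53 over all libraries left out; largest adjusted p 0.149). miR-29b-3p, summed over its loci on chromosomes 1 and 6, had 94.6 to 129 CPM at 8 weeks and 50.5 to 122 CPM at 6 weeks, and its difference of 0.33 ± 0.21 was not called (adjusted p = 0.327, edgeR). The 3 libraries of set 5 were the lowest for miR-29a-3p and miR-29c-3p at 6 weeks, at 1481 to 1746 and 380 to 481 CPM.

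**Figure D2:**
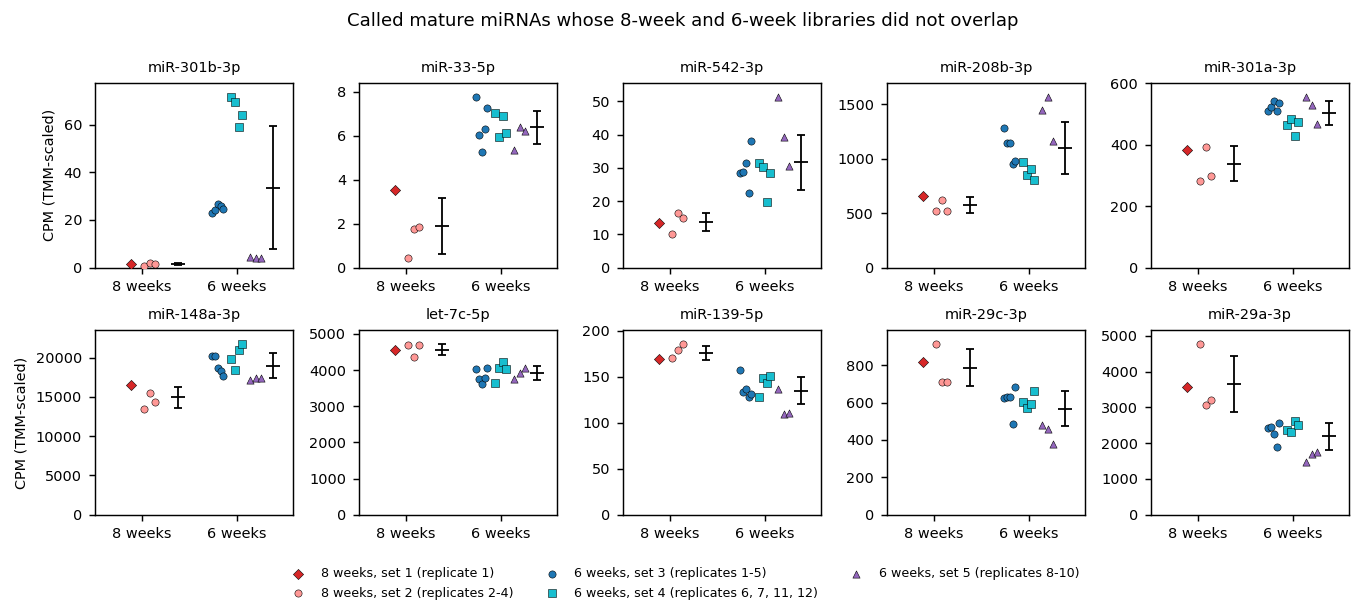
CPM of each library for the 10 called mature miRNAs whose groups did not overlap, libraries of 8 weeks on the left and of 6 weeks on the right of each panel, coloured by library set, with mean ± SD beside each group (n = 4 and n = 12). In 6 panels the libraries of 8 weeks are lower and in 4 higher, and miR-301b-3p shows 3 separate 6-week levels, 1 for each set. The lower panels include miR-33-5p and miR-301b-3p, in which no library of 8 weeks reached the CPM level of the filter. Their panels are therefore a description, and their lack of overlap supports nothing.

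Of the 4 tested miRNAs with the seed AGUGCAA of the miR-130 and miR-301 family, 2 were called lower (4.19% of all 310 were) and 1 of these, miR-301b-3p, was tested only because of its 6-week level. This family is known to target growth and metabolic regulators. miR-301a-3p (chr11:87113054-87113076, intron of Ska2) had 382, 281, 391 and 298 CPM at 8 weeks, against 427 to 556 CPM (median 510) at 6 weeks. The groups did not overlap (-0.57 ± 0.10, edgeR adjusted p = 0.00236), and the call held whichever library was left out (-0.65 to -0.49). The call ended with library totals in place of TMM (-0.50, adjusted p = 0.136, edgeR). Against sets 3, 4 and 5 alone the difference was -0.65, -0.44 and -0.61, and it was not called against set 4 (adjusted p = 0.0606, edgeR). miR-301b-3p (chr16:17124420-17124442) had 1.56, 0.853, 1.74 and 1.64 CPM at 8 weeks, against 3.86 to 71.9 CPM (median 25.1) at 6 weeks. Its 6-week libraries stood at 23.1 to 26.7 CPM in set 3, 59.1 to 71.9 CPM in set 4 and 3.86 to 4.31 CPM in set 5, so the difference of -4.47 ± 0.92 averages 3 unlike levels. No library of 8 weeks reached the 5 CPM of the filter, so this is a description and not a test result. Its neighbour miR-130b-3p (chr16:17124071-17124092), with the same seed, had 9.64 to 17.9 CPM at 8 weeks and 9.67 to 35.2 CPM at 6 weeks (-0.32 ± 0.32, adjusted p = 0.542, edgeR). miR-130a-3p, the most abundant member, had 1211 to 1521 CPM at 8 weeks and 1089 to 1365 CPM at 6 weeks, a difference of 0.17 ± 0.08 (adjusted p = 0.211, edgeR).

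miR-148a-3p and miR-30e-5p were the most abundant miRNAs that fell. miR-148a-3p (chr6:51269829-51269850), known as a regulator of DNA methyltransferase and lipid genes, had 16454, 13457, 15487 and 14318 CPM at 8 weeks, against 17131 to 21763 CPM (median 18534) at 6 weeks, with no overlap (-0.35 ± 0.08, edgeR adjusted p = 0.0166), and was not called against set 5 alone (-0.21). Its relatives by seed lay on the same side without passing the test: miR-148b-3p at -0.39 ± 0.13 (adjusted p = 0.0691) and miR-152-3p at -0.71 ± 0.35 (adjusted p = 0.221; edgeR for both). All 6 tested sequences of the 3 hairpins had differences below 0, as had 56.5% of all 310, with a median of -0.35 beside -0.06 over all 310. miR-30e-5p (chr4:120772660-120772681, intron of Nfyc), a member of the muscle-rich miR-30 family, had 19494, 20702, 18831 and 15870 CPM at 8 weeks, against 20469 to 31823 CPM (median 26743) at 6 weeks. Replicate 2 of 8 weeks lay just inside the 6-week range and the other 3 below it (-0.51 ± 0.12, adjusted p = 0.0130, edgeR; -0.33 against set 5 alone, not called). Of 5 members with the miR-30 seed GUAAACA it alone was called (4.19% of all 310 were called lower), and all 5 differences lay below 0, from -0.51 to -0.02, as did 56.5% of all 310. The call of miR-148a-3p ended without replicate 2 or 4 of 8 weeks (-0.41 to -0.30; largest adjusted p 0.0942), and that of miR-30e-5p without replicate 4 (-0.57 to -0.43; 0.0761).

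miR-542-3p (chrX:53049415-53049436, minus strand) is processed from an X-chromosome cluster with miR-450, miR-351, miR-503 and miR-322, a group studied for cell cycle arrest and muscle differentiation. It had 13.3, 10.2, 16.4 and 14.8 CPM at 8 weeks, against 19.8 to 51.5 CPM (median 30.4) at 6 weeks. The groups did not overlap, and the difference of -1.20 ± 0.21 (edgeR adjusted p = 0.00236) was called against each 6-week set alone (-1.13, -0.97 and -1.54) and whichever library was left out (-1.30 to -1.09). miR-450a-5p of the same cluster had 109 CPM in replicate 1 and 44.8, 57.6 and 52.8 CPM in replicates 2 to 4 of 8 weeks, against 88.5 to 177 CPM at 6 weeks. Replicate 1 lay inside the 6-week range and the others below it (-0.80 ± 0.24, adjusted p = 0.0400, edgeR; -1.15 without replicate 1), and the call ended without replicate 2, 3 or 4 of 8 weeks or replicate 1 or 7 of 6 weeks (largest adjusted p 0.201). The rest of the cluster was not called. miR-322-5p, its most abundant arm, had 594 to 979 CPM at 8 weeks and 617 to 1155 CPM at 6 weeks (0.06 ± 0.16, adjusted p = 0.866, edgeR), while miR-322-3p differed by -0.51 ± 0.20 (adjusted p = 0.135, edgeR). miR-542-5p, the other arm of the called hairpin, had 9.23 to 20.9 CPM at 8 weeks and 11.5 to 23.2 CPM at 6 weeks, a difference of -0.01 ± 0.19 (adjusted p = 0.978, edgeR).

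miR-33-5p (chr15:82198127-82198147), from an intron of the sterol regulator Srebf2 and a repressor of cholesterol export, had 3.53, 0.427, 1.74 and 1.85 CPM at 8 weeks, against 5.25 to 7.78 CPM (median 6.27) at 6 weeks. The fitted difference was -1.67 ± 0.27. No library of 8 weeks reached the 5 CPM of the filter, so this too is a description and not a test result, and 3 counts amount to 0.206 to 0.724 CPM in these libraries. miR-486a-3p (chr8:23142629-23142649), from an intron of Ank1, had 353, 306, 234 and 217 CPM at 8 weeks, against 284 to 556 CPM (median 439) at 6 weeks (-0.65 ± 0.17, adjusted p = 0.0223, edgeR), with replicates 1 and 2 inside the 6-week range. Its call ended without replicate 2, 3 or 4 of 8 weeks (-0.79 to -0.54; largest adjusted p 0.130). The far more abundant arm of the same hairpins, miR-486b-5p, had 69360 to 127760 CPM at 8 weeks and 62808 to 126720 CPM at 6 weeks and was not called (0.21 ± 0.21, adjusted p = 0.542, edgeR). Hairpins miR-486a and miR-486b lie on opposite strands of 1 site and the counts of each are uncertain.

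The imprinted Dlk1-Dio3 region of chromosome 12, whose many miRNAs are transcribed from the maternal copy, had 20 tested sequences. Of these 2 fell, none rose, and 19 differences lay below 0, where 4.19% of all 310 fell and 56.5% lay below 0. Their median was -0.39, beside -0.06 over all 310. miR-136-5p (chr12:109595331-109595353) had 41.1, 22.2, 29.7 and 28.5 CPM at 8 weeks, against 35.8 to 58.3 CPM (median 43.4) at 6 weeks (-0.55 ± 0.15, edgeR adjusted p = 0.0274). miR-300-3p (chr12:109724363-109724384) had 29.8, 21.1, 23.8 and 19.4 CPM at 8 weeks, against 26.5 to 38.2 CPM (median 33.6) at 6 weeks (-0.48 ± 0.13, adjusted p = 0.0248, edgeR). In both, replicate 1 of 8 weeks lay inside the 6-week range and replicates 2 to 4 below it, and both calls ended without replicate 2, 3 or 4 (largest adjusted p 0.145 for miR-136-5p and 0.153 for miR-300-3p). miR-127-3p, the most abundant member, had 1111, 809, 703 and 842 CPM at 8 weeks, against 853 to 2653 CPM (median 1094) at 6 weeks, and was not called (-0.67 ± 0.31, adjusted p = 0.201, edgeR). Against sets 3, 4 and 5 alone its difference was -0.15, -0.38 and -1.48, so it rested largely on set 5. For miR-136-5p these differences were -0.58, -0.65 and -0.34, and for miR-300-3p -0.41, -0.46 and -0.64. The region took 0.138% to 0.205% of counts at 8 weeks and 0.131% to 0.350% at 6 weeks. Outside it, miR-298-5p of the imprinted Nespas-Gnas region on chromosome 2 had 4.98, 8.75, 4.08 and 5.35 CPM at 8 weeks, against 6.75 to 14.7 CPM (median 9.95) at 6 weeks (-0.79 ± 0.24, adjusted p = 0.0454, edgeR). Leaving out replicate 1, 3 or 4 of 8 weeks or any of 7 libraries of 6 weeks ended that call (largest adjusted p 0.189).

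The let-7 family, which restrains growth genes and is high in adult tissue, had 9 members with the seed GAGGUAG, of which 2 rose and none fell, with 8 of 9 differences above 0, where 5.16% of all 310 rose and 43.5% lay above 0. let-7c-5p had 4546, 4693, 4348 and 4679 CPM at 8 weeks, against 3619 to 4217 CPM (median 3966) at 6 weeks. The groups did not overlap although the difference was small (0.23 ± 0.06, edgeR adjusted p = 0.0323), and it was called against none of the 3 sets alone (0.21 to 0.23). let-7d-5p (chr13:48536078-48536099) had 1161, 1595, 1310 and 1515 CPM at 8 weeks, against 961 to 1302 CPM (median 1055) at 6 weeks, with replicate 1 inside the 6-week range (0.39 ± 0.09, adjusted p = 0.0147, edgeR). let-7a-5p, let-7b-5p and let-7g-5p had differences of 0.20 ± 0.08, 0.29 ± 0.10 and 0.18 ± 0.08 and were not called (adjusted p = 0.120, 0.0870 and 0.144, edgeR). The call of let-7c-5p ended without replicate 2, 3 or 4 of 8 weeks or replicate 2, 6 or 9 of 6 weeks (0.18 to 0.25; largest adjusted p 0.144), and that of let-7d-5p without replicate 2 or 4 of 8 weeks (0.32 to 0.47; 0.0942).

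**Figure D3:**
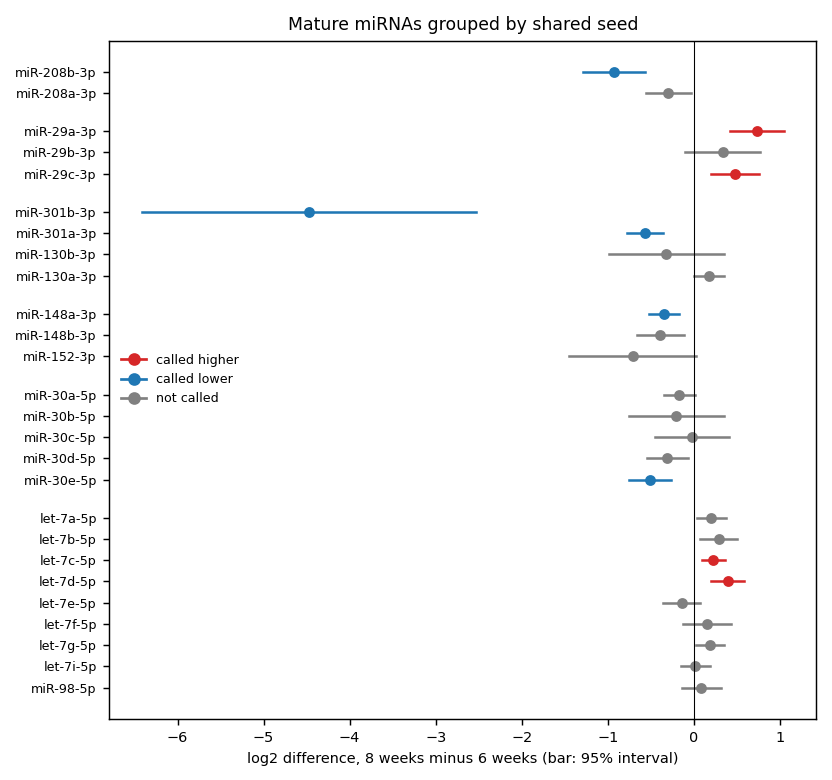
Log2 difference, 8 weeks minus 6 weeks, with its 95% interval for mature miRNAs grouped by shared seed, red where called higher, blue where called lower and grey where not called. All 3 miR-29 members lie above 0 and all 5 miR-30 members below 0, while the miR-130 and miR-301 members lie on both sides.

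miR-139-5p (chr7:101475382-101475404) is often lost in tumours. It had 169, 171, 179 and 186 CPM at 8 weeks, against 110 to 158 CPM (median 135) at 6 weeks. No libraries overlapped (0.39 ± 0.09, edgeR adjusted p = 0.0166; not called against set 4 alone, at 0.32), and the spread at 8 weeks was small (176 ± 7.70 CPM, SD, n = 4, and 135 ± 14.63 CPM, n = 12). The call ended without replicate 3 or 4 of 8 weeks or replicate 9 of 6 weeks (0.31 to 0.41; largest adjusted p 0.0761). miR-22-3p (chr11:75463772-75463793), among the most abundant miRNAs of these hearts and a regulator of cardiac hypertrophy, had 233450, 232460, 180520 and 184020 CPM at 8 weeks, against 138700 to 191610 CPM (median 161340) at 6 weeks. Replicates 1 and 2 lay above the 6-week range and replicates 3 and 4 inside it (0.33 ± 0.09, adjusted p = 0.0364, edgeR). Without replicate 1 the difference was 0.27 and not called, and the call also ended without replicate 2 or 4 of 8 weeks or replicate 6, 7, 9 or 11 of 6 weeks (0.26 to 0.39; largest adjusted p 0.163).

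In the other called miRNAs that were higher, replicate 1 of 8 weeks did not follow replicates 2 to 4. Replicate 1 lay inside the 6-week range in 10 of the 16 that rose and 5 of the 13 that fell. miR-199a-5p (chr1:162217844-162217866, with a further copy on chromosome 9), expressed in fibroblasts and raised in overloaded hearts, had 578 CPM in replicate 1 and 1948, 1490 and 1704 CPM in replicates 2 to 4, against 442 to 1060 CPM (median 483) at 6 weeks. The difference was 1.26 ± 0.28 (edgeR adjusted p = 0.0122), 1.52 without replicate 1, and 1.61, 1.59 and 0.58 against sets 3, 4 and 5, the last not called. The opposite arm, miR-199a-3p, had 3170 to 3440 CPM at 8 weeks and 2749 to 3662 CPM at 6 weeks, a difference of 0.03 ± 0.08 (adjusted p = 0.866, edgeR). miR-5099-3p (chr12:36816250-36816269) had 77.6 CPM in replicate 1 and 307, 367 and 489 CPM in replicates 2 to 4, against 33.1 to 97.8 CPM (median 67.2) at 6 weeks (2.20 ± 0.30, adjusted p = 0.000520, edgeR; 1.89 to 2.52 with any library left out). The call of miR-199a-5p ended without replicate 2 or 4 of 8 weeks (largest adjusted p 0.0809).

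miR-23a-3p (chr8:84208563-84208583), which promotes muscle growth by lowering atrophy genes, had 813 CPM in replicate 1 and 1907, 1472 and 1869 CPM in replicates 2 to 4, against 698 to 1219 CPM (median 943) at 6 weeks (0.63 ± 0.17, edgeR adjusted p = 0.0294). miR-27a-3p of the same cluster differed by 0.02 ± 0.11 (adjusted p = 0.925, edgeR). miR-155-5p (chr16:84714143-84714165), an inflammatory miRNA of white blood cells, had 52.0 CPM in replicate 1 and 103, 94.5 and 91.1 CPM in replicates 2 to 4, against 49.8 to 68.8 CPM (median 59.3) at 6 weeks (0.55 ± 0.14, adjusted p = 0.0202, edgeR). The white blood cell miRNAs to which it belongs took 0.277% to 0.404% of counts at 8 weeks and 0.191% to 0.702% at 6 weeks. Of their 6 tested sequences 1 rose and none fell, where 5.16% of all 310 rose and 4.19% fell. The differences lay above 0 in 3 of the 6 and below 0 in 3. The part of these cells in the result was not tested. miR-221-3p (chrX:19146307-19146329), tied to smooth muscle and endothelial growth, had 198 CPM in replicate 1 and 269, 301 and 281 CPM in replicates 2 to 4, against 146 to 245 CPM (median 171) at 6 weeks (0.52 ± 0.13, adjusted p = 0.0212, edgeR). Each of these 3 calls ended without replicate 2, 3 or 4 of 8 weeks, and those of miR-155-5p and miR-221-3p also without replicate 9 of 6 weeks (largest adjusted p 0.166 for miR-23a-3p, 0.141 for miR-155-5p and 0.0934 for miR-221-3p). Without replicate 1 of 8 weeks the 3 differences were 0.84, 0.72 and 0.64.

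Lower in abundance, miR-338-3p had 64.5 CPM in replicate 1 and 95.7 to 122 CPM in replicates 2 to 4, against 53.2 to 75.2 CPM at 6 weeks (0.49 ± 0.13). let-7i-3p had 30.7 CPM and 45.0 to 54.6 CPM, against 22.9 to 39.3 CPM at 6 weeks (0.57 ± 0.15). miR-374b-5p, from the X-inactivation transcript Ftx, had 18.1 CPM, below the 6-week range of 20.01 to 31.2 CPM, and 34.3 to 51.4 CPM in replicates 2 to 4, above it (0.68 ± 0.19). In each of these 3 the call ended without replicate 2, 3 or 4 of 8 weeks, and for miR-374b-5p also without replicate 6 or 9 of 6 weeks (largest edgeR adjusted p 0.149, 0.139 and 0.214). miR-362-3p was the remaining fall, with 15.3 CPM in replicate 1 and 7.25 to 10.9 CPM in replicates 2 to 4, against 12.6 to 18.002 CPM at 6 weeks (-0.54 ± 0.15); its call ended without replicate 2, 3 or 4 of 8 weeks (largest edgeR adjusted p 0.193). miR-378c-5p, whose counts are uncertain because it nearly matches the abundant miR-378a-3p, had 59.0, 91.7, 107 and 95.03 CPM at 8 weeks, against 24.2 to 77.6 CPM at 6 weeks (1.10 ± 0.24), and its call ended without replicate 3 or 4 of 8 weeks (largest edgeR adjusted p 0.0521). miR-378a-3p itself, an energy metabolism regulator, differed by 0.11 ± 0.10 (adjusted p = 0.517, edgeR). The predicted hairpin Gm23935, with identical copies at other loci, had 6.95 CPM in replicate 1 and 111 to 143 CPM in replicates 2 to 4, against 2.67 to 62.2 CPM at 6 weeks (2.26 ± 0.65), and its call ended without replicate 2, 3 or 4 of 8 weeks or any of 6 libraries of 6 weeks (largest edgeR adjusted p 0.166).

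Replicate 1 of 8 weeks differed 2-fold or more from the mean of replicates 2 to 4 in 35 of the 310 sequences, 21 above and 14 below. Large gaps were those of Gm23935, given above, of miR-501-3p, with 122 CPM in replicate 1 and 4.69, 3.91 and 6.55 CPM in replicates 2 to 4, against 104 to 423 CPM at 6 weeks, and of miR-100-5p, with 6821 CPM and 505, 383 and 417 CPM, against 3095 to 13571 CPM at 6 weeks. miR-501-3p and miR-100-5p were chosen after their values were seen. In each of them, replicate 1 lay inside the 6-week range and the other 3 far below it. miR-99b-5p, which like miR-100-5p represses the growth kinase Mtor, had 10760 CPM in replicate 1 and 1946, 1465 and 1777 CPM in replicates 2 to 4, against 7892 to 25649 CPM (median 8745) at 6 weeks. With all 4 libraries none of these 3 was called, at -2.32 ± 0.84, -1.44 ± 0.72 and -1.60 ± 0.54 (edgeR adjusted p = 0.0913, 0.233 and 0.0759). Without replicate 1 all 3 were called lower, at -5.09, -3.66 and -2.80. The gap of replicate 1 is what set these miRNAs apart, and the libraries left are all of set 2. These 3 calls are therefore a description and not a test of age. The libraries of set 5 were the highest 3 of 6 weeks in each of them.

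**Figure D4:**
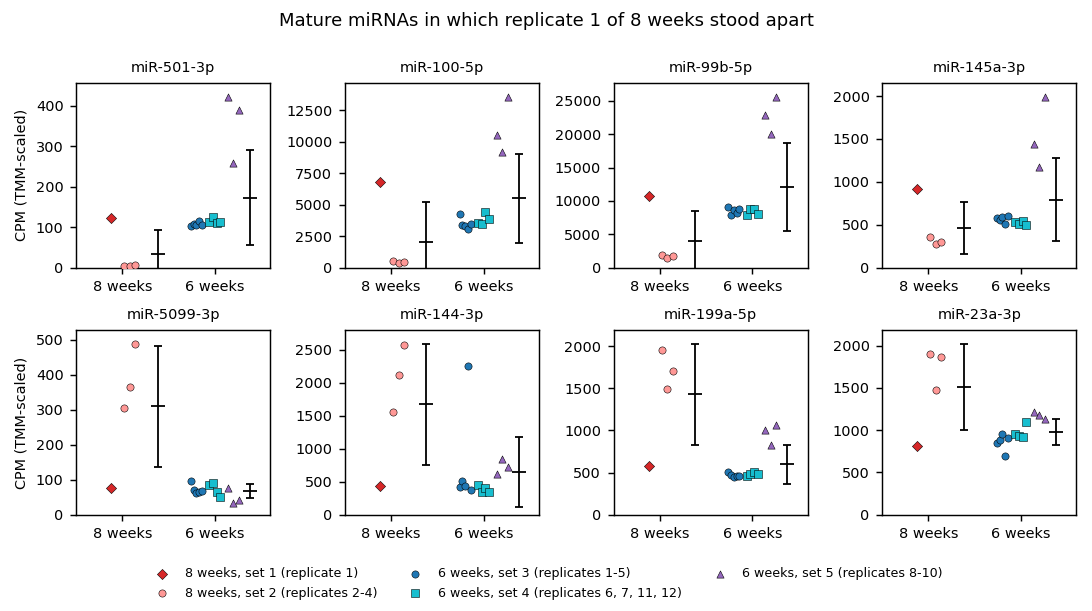
CPM of each library for 8 mature miRNAs in which replicate 1 of 8 weeks (red diamond) stood apart from replicates 2 to 4, libraries of 8 weeks on the left and of 6 weeks on the right of each panel, coloured by library set, with mean ± SD (n = 4 and n = 12); error bars are cut at 0. In the top row replicate 1 lies above replicates 2 to 4 and in the bottom row below them, and in all 8 it lies inside the 6-week range.

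miR-125a-5p, a neighbour of miR-99b, had 7135 CPM in replicate 1, just above the 6-week range of 4839 to 7081 CPM, and 3178 to 4095 CPM in replicates 2 to 4, below it. It was called lower only without replicate 1 (-0.63; -0.33 ± 0.16 with it, edgeR adjusted p = 0.213). All 5 tested sequences of miR-99 and miR-100 and all 4 of miR-125 had differences below 0, as had 56.5% of all 310. None was called, where 9.35% of all 310 were. miR-144-3p, an erythroid miRNA, had 438 CPM in replicate 1 and 1556, 2123 and 2564 CPM in replicates 2 to 4, against 342 to 2246 CPM (median 442) at 6 weeks (1.38 ± 0.46, adjusted p = 0.0691, edgeR; called without replicate 1 at 1.69). miR-451a-5p, from the same cluster, had 4407, 5231, 7669 and 7260 CPM at 8 weeks, against 2752 to 17638 CPM (median 3470) at 6 weeks, and was not called (0.35 ± 0.41, adjusted p = 0.639, edgeR). Red blood cell miRNAs as a list took 7.61% to 12.9% of counts at 8 weeks and 5.49% to 16.2% at 6 weeks. By far the most abundant member of the list was miR-486b-5p, and which cells gave its counts was not tested.

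At the level of single loci, 39 of 342 rows were called (11.4%), 24 higher (7.02%) and 15 lower (4.39%). Of the 39, 13 were copies of a sequence encoded elsewhere, where 62 of all 342 rows belonged to sums of 2 or more rows. Scaled by library totals the rows called were 12 higher and 4 lower. For several rows called higher the sum over the copies was not called. The row of miR-16-1-5p (chr14:61631936-61631957, intron of Dleu2) differed by 1.73 ± 0.23 (edgeR adjusted p = 0.000299). It received 21.7% of the counts of miR-16-5p, known to restrain the cell cycle, in replicate 1 and 7.47% to 7.92% in replicates 2 to 4 of 8 weeks, against 3.18% to 6.42% at 6 weeks. The sum for miR-16-5p had 9819 to 13124 CPM at 8 weeks and 5547 to 12533 CPM at 6 weeks and was not called (0.50 ± 0.16, adjusted p = 0.0691, edgeR), but without replicate 1 of 8 weeks miR-16-5p was called higher (0.57, adjusted p = 0.0383, edgeR).

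The row of miR-30c-1-5p likewise had 30.2% of the counts of miR-30c-5p in replicate 1 and 12.05% to 12.9% in replicates 2 to 4 of 8 weeks, against 5.49% to 8.78% at 6 weeks. Its row differed by 1.33 ± 0.26 (edgeR adjusted p = 0.00323), by 0.66 without replicate 1, and the sum by -0.02 ± 0.20 (adjusted p = 0.951, edgeR). The rows of miR-133a-1-3p, miR-26a-1-5p, miR-199a-1-3p and miR-29b-1-3p were called higher at 1.10, 0.40, 0.58 and 1.53, beside sums of 0.15 ± 0.07, 0.12 ± 0.08, 0.03 ± 0.08 and 0.33 ± 0.21 that were not called. These 6 rows had no overlap between the ages, as had 17 of all 342 (4.97%), 10 higher (2.92%) and 7 lower (2.05%), and they stayed called whichever library was left out. With the library set as a random block, miR-133a-1-3p, miR-16-1-5p, miR-29b-1-3p and miR-30c-1-5p were the only 4 rows called. All 4 were copies, as were 62 of all 342 rows. The shares of miR-133a-1-3p, miR-16-1-5p and miR-30c-1-5p were among those that defined the sets. For these rows the block is therefore not an independent test, and their calls are a description.

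**Figure D5:**
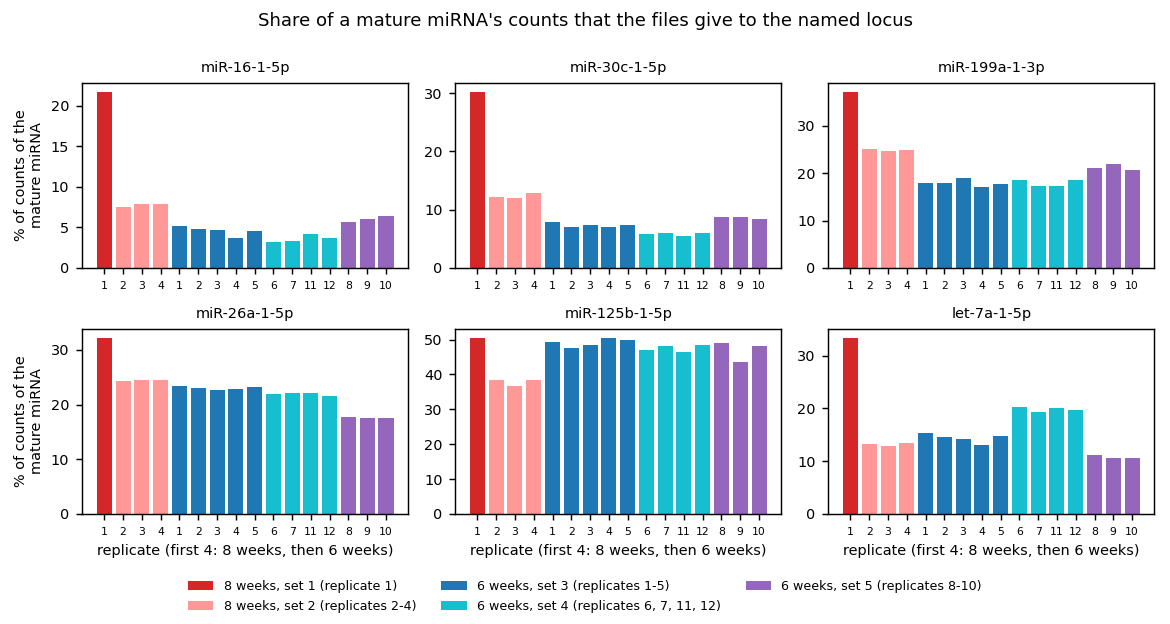
Bars give the percent of a mature miRNA's counts that the files assign to the named locus in each of the 16 libraries, 8 weeks first, then 6 weeks, coloured by library set. The sets were formed from shares that include these, so steps between sets are not a separate result. Sets 3 and 4 overlap for miR-16-1-5p, miR-199a-1-3p and miR-125b-1-5p. Replicate 1 of 8 weeks has the highest share or close to it in each panel (21.7% for miR-16-1-5p).

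The muscle miRNAs miR-133a-3p and miR-1a-3p did not pass the test. miR-133a-3p, summed over its loci and known to restrain hypertrophy, had 89211 to 104330 CPM at 8 weeks and 72120 to 97428 CPM at 6 weeks (0.15 ± 0.07, edgeR adjusted p = 0.222), with a 95% interval of -0.01 to 0.30. miR-1a-3p had 3508 to 4886 CPM at 8 weeks and 2408 to 18487 CPM at 6 weeks (-0.40 ± 0.48, adjusted p = 0.639, edgeR). The miRNAs of the miR-1, miR-133 and miR-206 clusters took 10.3% to 11.2% of counts at 8 weeks and 6.11% to 10.7% at 6 weeks, and miR-206-3p, which marks skeletal muscle, had 0 counts in all 4 libraries of 8 weeks, which allows up to 0.289 to 0.609 CPM by library (3 counts, counting error only), and at most 1 count at 6 weeks. The endothelial miR-126a-3p had 9109 to 11353 CPM at 8 weeks and 7051 to 11180 CPM at 6 weeks (0.18 ± 0.11, adjusted p = 0.303, edgeR). Endothelial miRNAs took 4.53% to 5.17% of counts at 8 weeks and 2.65% to 6.80% at 6 weeks. In such bulk tissue, fewer cells of a type and less RNA per cell cannot be told apart.

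The smooth muscle list of miR-143 and miR-145 took 8.74% to 9.46% of counts at 8 weeks, against 9.04% to 43.7% (median 11.6%) at 6 weeks. miR-143-3p had 80063 to 91725 CPM at 8 weeks and 78143 to 613830 CPM (median 108970) at 6 weeks and was not called (-1.14 ± 0.60, edgeR adjusted p = 0.258). Without the 2 libraries of 6 weeks in which it exceeded 40% of counts, 20 sequences were called (12 higher, 8 lower), all 20 among the 29. Lists of liver, brain and fat miRNAs took at most 0.184%, 0.00646% and 0.00957% of counts at 8 weeks and at most 0.234%, 0.00762% and 0.00973% at 6 weeks, and the liver miRNA miR-122-5p had at most 25 counts at 8 weeks and 5 at 6 weeks. None of the 2, 1 and 3 tested sequences of these lists was called, where 9.35% of all 310 were, and so few say little. Epithelial miRNAs took 0.0201% to 0.0260% of counts at 8 weeks and 0.0118% to 0.0235% at 6 weeks.

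Of the other lists of related miRNAs, none of 13 tested sequences of the miR-15 and miR-16 family (median 0.13), 13 of the miR-17 to miR-92 clusters (0.08), 7 of the miR-181 family (0.02), 3 of the miR-26 family (0.12) or 4 of the hypertrophy cluster miR-212 and miR-132 (-0.03) was called. Over all 310 sequences 9.35% were called and the median was -0.06, so the absence of calls in such short lists says little. miR-21a-5p, raised in stressed and fibrotic heart, had 2150 to 3130 CPM at 8 weeks and 2281 to 3471 CPM at 6 weeks (-0.07 ± 0.11, edgeR adjusted p = 0.705). Its minor arm miR-21a-3p had 26.03, 17.9, 16.5 and 16.3 CPM at 8 weeks, against 23.4 to 68.6 CPM (median 31.4) at 6 weeks, and was called in the fit of single rows (adjusted p = 0.0481) and not in the fit of sums (-0.97 ± 0.30, adjusted p = 0.0551; edgeR for both). miR-150-5p, a lymphocyte miRNA, was the 1 sequence without overlap that was not called, with 1282 to 1461 CPM at 8 weeks and 378 to 1235 CPM at 6 weeks (0.66 ± 0.24, adjusted p = 0.0977, edgeR). Its lack of overlap depended on TMM: by library totals the groups overlapped, at 1225 to 1621 CPM and 357 to 1409 CPM. The inflammatory miRNAs miR-146a-5p and miR-146b-5p ranged from 90.6 to 322 and 23.6 to 96.6 CPM at 8 weeks and from 49.5 to 1327 and 8.30 to 517 CPM at 6 weeks, and neither was called. As to precision, 249 of the 310 sequences had a 95% interval that stayed between -1 and 1 on the log2 scale, and for 110 it stayed between -0.5 and 0.5.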

How the data were processed

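The files hold raw read counts per miRNA arm, as deposited by the authors; the submitters' processing notes list the build GRCm38 and the tools edgeR and DESeq, and the aligner is not given in the sources used here. Of 1545 rows, 342 reached 5 CPM in 4 or more libraries of the 16. Rows of identical mature sequence were summed to 310. Of the tested rows 19 were deposited as antisense, with 6.31% to 13.0% of counts, and were matched to RefSeq with the strand turned, so their strand and copy are uncertain; 297 rows matched a RefSeq sequence. Age was tested on the 16 libraries with edgeR 4.0.16 (R 4.3.3, TMM, quasi-likelihood F-test). Benjamini-Hochberg adjustment was over all rows or sums, with a call at an adjusted p under 0.05. The test was checked on simulated counts drawn independently for each library, without library sets. That check cannot show how the test behaves where libraries fall into sets. Differences are log2, 8 weeks over 6 weeks, ± SE.

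Library sets came from 20 shares of counts between loci (average linkage, distance 15). Alternatives were library totals, DESeq2 1.42.0, limma 3.58.1 (voom), other filters, a replicate block, each 6-week set alone, and leaving out each library, the miR-143-rich libraries or the antisense rows; the random block for library set was added after seeing the data. Total counts of 4146777 to 14563754 put 3 counts at 0.206 to 0.724 CPM; such limits cover counting error only. No 2 libraries of a group agreed within sampling noise. The members and lists were chosen with earlier results of these data known. By rule the named miRNAs were the 15 largest rises and falls averaging at least 20 CPM and the 10 most abundant arms. To these came the 2 most abundant of each list, and the arms of miR-208, miR-499, miR-1a, miR-133a, miR-29, miR-451a and miR-126a. Not all of them are described above: miR-27b-3p, miR-126a-5p and miR-142a-5p are among those left out. The remaining called miRNAs and the relatives, cluster neighbours and opposite arms of called ones were added after their values were seen. Libraries of other ages and of females were not used here.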

Additional observations from a re-analysis of the deposited data

Results flagged for a closer look

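Among the 84 named miRNAs examined for 1 library of 8 weeks lying far from the other 3, 8 had such a library, where chance gives about 1 in 20; in 7 it was replicate 1 and in 1 replicate 2. The mTOR-linked miR-100-5p had 6821 CPM in replicate 1, against 383 to 505 CPM in the others, and miR-99b-5p had 10760 CPM, against 1465 to 1946 CPM. miR-145a-3p, a smooth muscle miRNA, had 915 CPM in replicate 1, against 280 to 353 CPM in the others. miR-212-5p had 33.2 CPM in replicate 1, against 7.04 to 7.20 CPM in the others. The minor arms miR-499-3p and miR-21a-3p had 31.7 and 26.03 CPM in replicate 1, against 11.7 to 14.3 and 16.3 to 17.9 CPM in the others. miR-30c-5p had 13471 CPM in replicate 1, against 9531 to 10075 CPM in the others. miR-26a-5p had 42528 CPM in replicate 2, against 32240 to 33917 CPM in the others.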

How the results depend on the processing

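None of the called miRNAs changed sign under any alternative in which it was tested. Nor did the called rows that were named and had another copy, the only rows whose sign was compared. Of all 3219 recomputed values 169 changed sign, all among those not called. For mature sequences the 29 calls became 8 with library totals, 57 with DESeq2, 18 with no filter on low counts, 13 against set 4 alone, 103 against set 5 alone, 0 with the library set as a random block, and 7 to 62 with 1 library left out. By library, 62 were called without replicate 1 of 8 weeks, 11 without replicate 2, 12 without replicate 3 and 7 without replicate 4, and 21 to 37 without a library of 6 weeks. For single rows the 39 calls became 16 with library totals, 59 with DESeq2, 115 against set 5 alone, 4 with the random block, and 15 to 71 with 1 library left out. Against set 5 alone 3 values turned round and passed the test: miR-30c-5p at 0.68, miR-92a-3p at 0.52 and the row of miR-92a-1-3p at 0.52; the cause was not tested. The other alternatives kept both counts within 1.5 times. With the replicate number as a block, 11 rows and 3 sequences were called (let-7j-5p, miR-208b-3p and miR-301b-3p). Same-numbered deviations correlated at 0.28, -0.03, 0.14 and 0.16 over sequences. Among replicates 1 to 4 of 6 weeks, replicates 1 and 4 of 8 weeks correlated best with their own number and replicates 2 and 3 did not. These values do not show whether the numbers pair the libraries. Depth limits miRNAs of a few CPM, such as miR-33-5p.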
